A study of Ovis aries with 24 samples.

Results

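The 4 genes ENSOARG00000009963, ENSOARG00000025188, ENSOARG00000025195 and ENSOARG00000006552 were taken from the 27054 sheep genes of a count table of the lamb stomach. They were chosen because their mean expression in the rumen epithelium rose over 30-fold from d5 to d10 of age, while the d10 libraries differed so much that the SD was near or above the mean. RNA of the epithelium was sequenced from rumen, reticulum, omasum and abomasum of lambs aged d5 or d10, in 24 libraries that make up 8 groups of 3. The epithelium was separated from the muscle layer directly after slaughter, and the rumen tissue came from the ventral sac. No treatment or genetic change is given for any group. The methods of the study describe the d5 rumen lambs as male Hu lambs kept with their mothers on ewe's milk, with starter pellets offered from d10. For the d10 lambs, the sources used here do not state breed, sex or feeding. Genes are listed under Ensembl identifiers alone, and 0 of the 4 could be paired with a symbol. Their products and functions are therefore not stated, no sequence is shown, and the epithelial label could not be checked against marker genes.

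The rumen, reticulum and omasum form the forestomach, which is lined by a stratified squamous epithelium. The abomasum is the glandular stomach, which secretes acid and pepsinogen. In a suckling lamb, milk bypasses the rumen and is digested in the abomasum, and the rumen epithelium grows and keratinizes as solid feed and microbial fermentation begin.

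Total counts ranged from 13041697 to 19650121 per library, so that 1 count equals 0.0509 to 0.0767 CPM (the count divided by the library total and scaled to 1000000). A count of 0 allows up to 3 counts, which is 0.153 to 0.230 CPM. These limits and the 95% intervals below cover counting error only. Libraries 1 and 2 of the omasum at d5 stood apart. A set of 27 genes abundant in the abomasum and nearly absent in the rumen took 2.52% and 32.1% of their counts, against 0.0228% in library 3 of that group, 21.3% to 46.3% in the abomasum and at most 0.0286% in the other forestomach libraries. Values of the omasum at d5 are therefore given for each library. Tests of age in the omasum, and of the omasum against another chamber, are given with and without both libraries. Tests of whether age effects differed between chambers are given only with them. The labels do not say whether libraries came from separate lambs, so that p-values measure only the spread between libraries.

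In the rumen, all 4 genes were low in every d5 library and higher in every d10 library, but the size of the rise differed between d10 libraries by up to 47.3-fold. The d5 and d10 libraries of the rumen did not overlap for any of the 4 genes. Among the 13931 genes with a mean of at least 1 CPM in the rumen, 30.6% were likewise higher at d10 without overlap, and nothing is read from the members here, as they were chosen on these libraries. For the same reason no test of age in the rumen is given for them.

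ENSOARG00000009963 was at 1.82, 0.307 and 0.133 CPM in rumen libraries 1, 2 and 3 at d5, and at 72.9, 245 and 5.19 CPM at d10. The lowest d5 value stood for 2 counts (exact Poisson 95% limits 0.0162 and 0.482 CPM). Its mean was 0.753 ± 0.927 CPM (SD, n = 3) at d5 and 108 ± 124 CPM (SD, n = 3) at d10, a ratio of 143. Library 2 held 75.8% of the summed d10 expression, and library 3 was 47.3-fold below it. The ratio was 51.9 without d10 library 2 and 490 without d5 library 1.

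ENSOARG00000025188 was at 6.24, 2.84 and 7.81 CPM in the rumen at d5 and at 845, 138 and 52.9 CPM at d10. Here library 1 and not library 2 was the highest at d10, with 81.6% of the summed expression of the 3. The means were 5.63 ± 2.54 CPM and 345 ± 435 CPM (SD, n = 3 each), a ratio of 61.4. Without d10 library 1 the ratio was 17.0, below the limit by which the gene was chosen.

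ENSOARG00000025195 was at 1.10, 1.69 and 0.334 CPM in the rumen at d5 and at 111, 24.05 and 4.597 CPM at d10. The order of the d10 libraries was that of ENSOARG00000025188, with 79.4% of the summed expression in library 1. The means were 1.04 ± 0.679 CPM and 46.4 ± 56.5 CPM (SD, n = 3 each), a ratio of 44.6, which fell to 13.7 without d10 library 1.

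ENSOARG00000006552 was at 1.88, 3.83 and 2.67 CPM in the rumen at d5 and at 214, 62.8 and 35.1 CPM at d10. It followed the same order of d10 libraries with a smaller spread, as library 1 held 68.6% and was 6.10-fold above library 3. The means were 2.80 ± 0.981 CPM and 104 ± 96.4 CPM (SD, n = 3 each), a ratio of 37.2. Without d10 library 1 the ratio was 17.5. With library sizes scaled by TMM (trimmed mean of M-values), the ratios of the 4 genes were 130, 54.0, 38.8 and 32.5 in the order described, all still over 30.

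**Figure D1:**
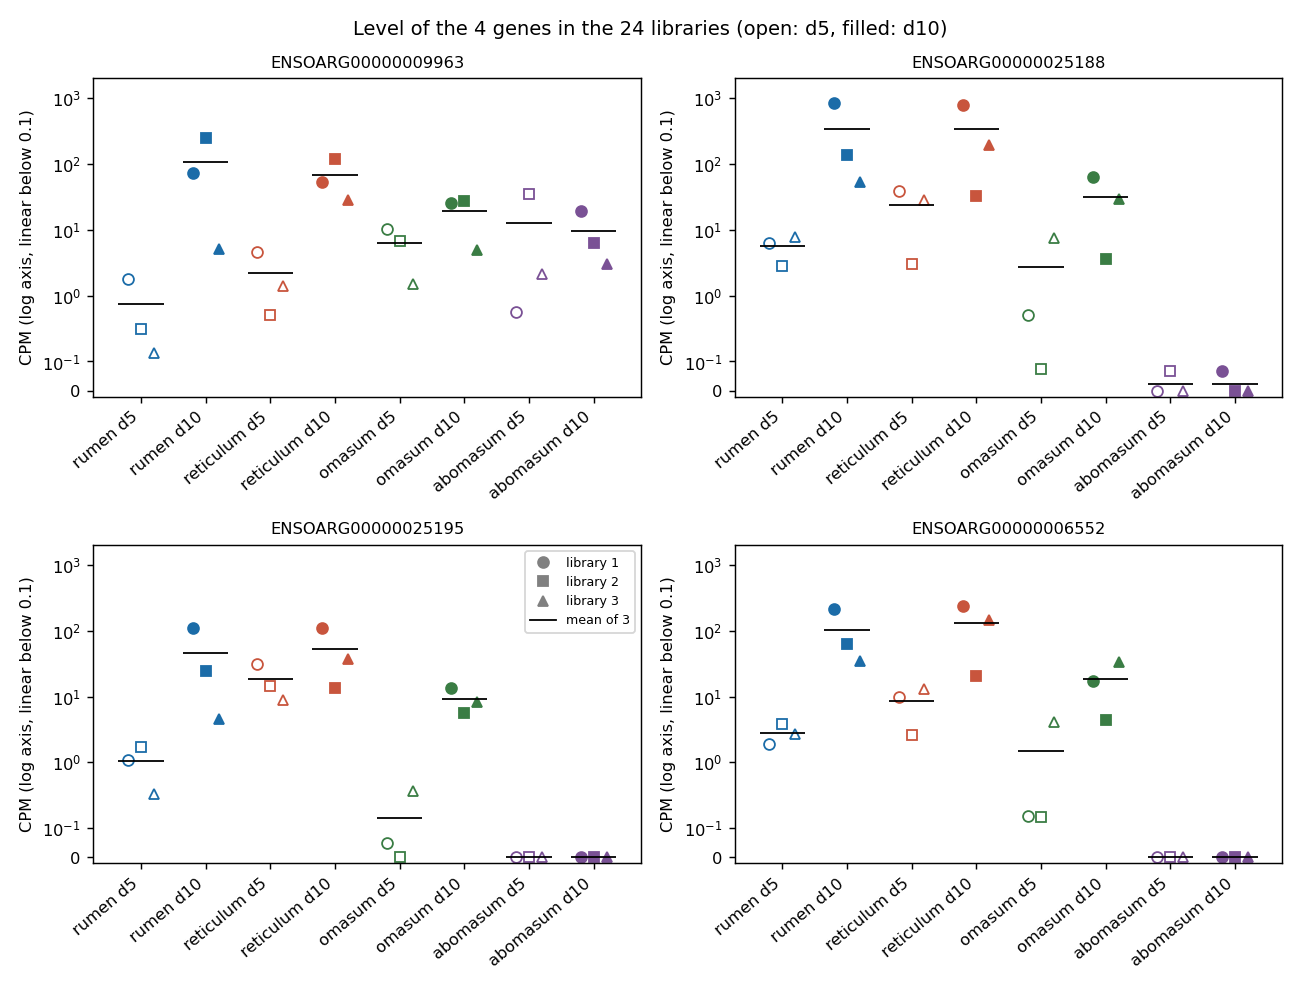
CPM of each of the 4 genes (vertical axis, log scale above 0.1 and linear below) in the 8 groups of chamber and age (horizontal axis). Each symbol is 1 library, its shape gives the replicate number, open symbols are d5 and filled symbols d10, and the bar is the mean of 3 libraries. In the rumen every d10 library lies above every d5 library, while 3 of the genes are at or near 0 in the abomasum.

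The rule that chose the genes was applied to all genes as a description. Of 13990 genes with a rumen mean of at least 1 CPM at d10 and any count at d5, 37 rose over 30-fold, and their median SD over mean at d10 was 0.286. Of these, 6 had an SD of at least 0.8 times the mean, the 4 genes among them. The other 2, named after their values were seen, were ENSOARG00000011495 and ENSOARG00000020505, with lower d10 means of 22.2 and 9.35 CPM. The SD over mean was 1.15, 1.26, 1.22 and 0.927 for ENSOARG00000009963, ENSOARG00000025188, ENSOARG00000025195 and ENSOARG00000006552. Among the 6 genes that met both limits, those nearest 30-fold were ENSOARG00000006552 (37.2) and ENSOARG00000020505 (41.3, SD over mean 0.915). Of the 6 they were also nearest the limit on the spread. Of genes that met the limit on the spread, those nearest below 30-fold were ENSOARG00000017457 (26.4, SD over mean 0.803) and ENSOARG00000025193 (23.6, SD over mean 0.844). Of genes over 30-fold, those nearest below the limit on the spread were ENSOARG00000004136 (SD over mean 0.701, 32.6-fold) and ENSOARG00000010953 (0.669, 49.6-fold).

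**Figure D2:**
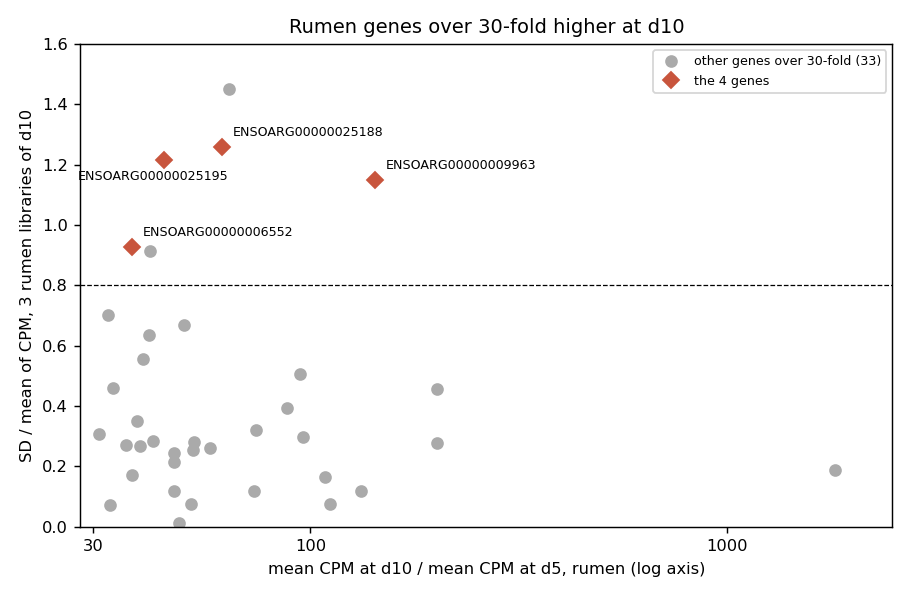
Ratio of the mean CPM at d10 to that at d5 in the rumen (horizontal axis, log scale) against the SD over mean of the 3 d10 rumen libraries (vertical axis) for the 37 genes over 30-fold, with the 4 genes as diamonds and the other 33 genes as circles. The dashed line is an SD of 0.8 times the mean, above which 6 genes lie, and the gene far to the right, ENSOARG00000012585, had a d5 mean of only 0.0222 CPM.

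All 4 genes were higher in every d10 library of the rumen than in any d5 library, but the libraries in which they were highest differed. ENSOARG00000025188, ENSOARG00000025195 and ENSOARG00000006552 had the same order of the 3 libraries in the rumen at d10 (1, 2, 3 from high to low) and in the reticulum at d10 (1, 3, 2). Library 1 was the highest for all 3 genes in both chambers. Same-numbered libraries of different chambers may come from the same lamb, so that orders shared between chambers may not be separate observations. ENSOARG00000009963 had another order, 2, 1, 3, which was the same in rumen, reticulum and omasum at d10. In library 2 of the reticulum at d10 it reached its highest level of that chamber, 120 CPM, where the other 3 genes had their lowest d10 levels of that chamber. Over the 6 groups of the forestomach, the order of libraries was the same for the 3 genes in 3 groups and for all 4 genes in 0 groups, and ENSOARG00000009963 shared its highest library with ENSOARG00000025188 in 1 group. The other group with a shared order was the omasum at d5, where it rests on 1 against 0 counts of ENSOARG00000025195 and 3 against 2 counts of ENSOARG00000006552 in both libraries with abomasal transcripts. In the omasum at d10 the order was 3, 1, 2 for ENSOARG00000006552 and 1, 3, 2 for ENSOARG00000025188 and ENSOARG00000025195. In the rumen at d5, where the levels were low, each of the 3 genes had an order of its own. The same held in the reticulum at d5, at higher levels of 2.62 to 39.4 CPM. The order there was 1, 3, 2 for ENSOARG00000025188, 1, 2, 3 for ENSOARG00000025195 and 3, 1, 2 for ENSOARG00000006552.

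**Figure D3:**
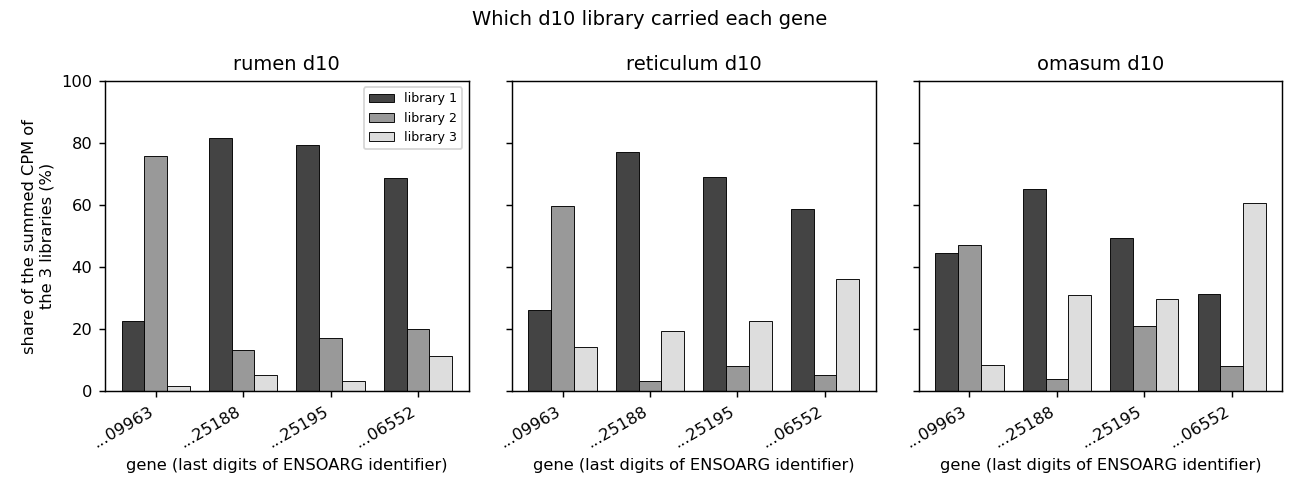
Share of each d10 library in the summed CPM of the 3 libraries of its chamber (vertical axis, percent) for the 4 genes (horizontal axis), in rumen, reticulum and omasum. Library 1 holds 68.6% to 81.6% of the rumen sum for ENSOARG00000025188, ENSOARG00000025195 and ENSOARG00000006552, while library 2 holds 75.8% for ENSOARG00000009963.

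On the log2(CPM + 1) scale over all 24 libraries, Pearson r was 0.982 between ENSOARG00000025188 and ENSOARG00000006552, 0.919 between ENSOARG00000025188 and ENSOARG00000025195, and 0.914 between ENSOARG00000025195 and ENSOARG00000006552. ENSOARG00000009963 had r of 0.507 to 0.520 with these genes. These values describe the libraries and carry no p, since libraries of 1 chamber and age share their group's level, and libraries of different chambers may come from the same lamb. Over the 18 libraries without the rumen, which the choice of genes did not use, r was 0.915 to 0.983 among the 3 genes and 0.354 to 0.421 with ENSOARG00000009963. The level of each group contributes to these values. After subtracting the mean of each group, the deviations of the same 18 libraries had r of 0.633 to 0.924 among the 3 genes and -0.372 to -0.0640 with ENSOARG00000009963. Spearman's rho of these deviations was 0.585 to 0.945 and -0.385 to -0.0736. The abomasum, where the 3 genes had 2 counts in all, adds libraries with almost no variation. In the 12 libraries of reticulum and omasum alone, r of the deviations was 0.633 to 0.924 among the 3 genes and -0.580 to -0.0999 with ENSOARG00000009963. All sets so far include omasum d5 libraries 1 and 2, and the part of their abomasal transcripts in these values was not tested. The 9 d10 libraries of the forestomach leave both out but include rumen libraries used for the choice. Their deviations had r of 0.814 to 0.929 among the 3 genes and -0.134 to 0.365 with ENSOARG00000009963. The 12 libraries of rumen and reticulum include those used for the choice. There, r with ENSOARG00000009963 was 0.702 to 0.799, and 0.0896 to 0.429 after subtracting the group means. Among the 3 genes it was 0.825 to 0.969 and 0.762 to 0.921.

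**Figure D4:**
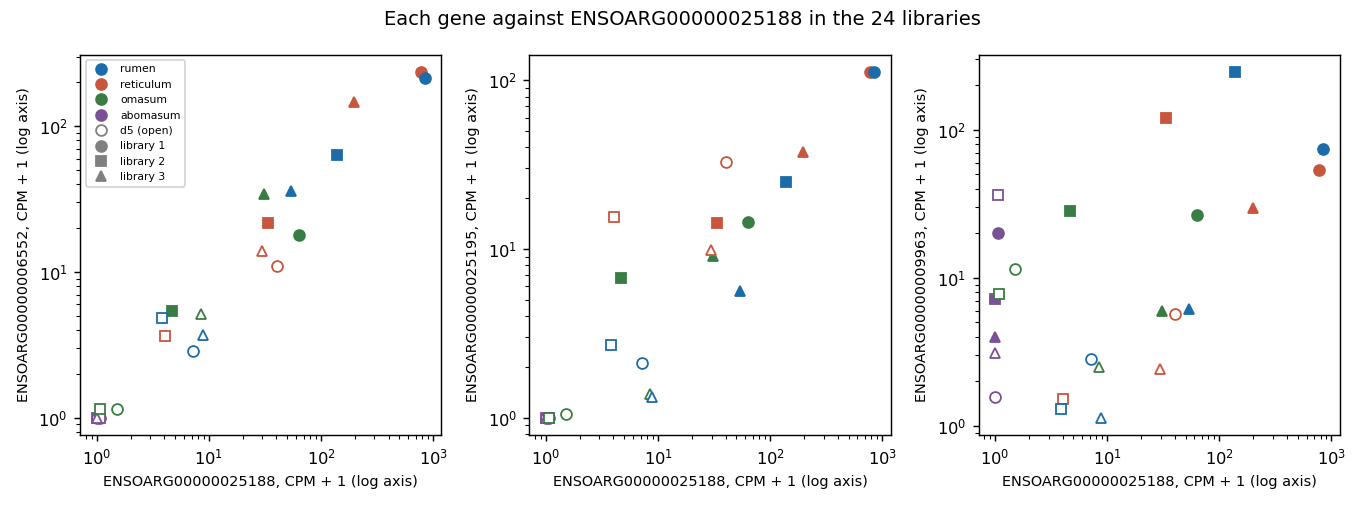
CPM + 1 of ENSOARG00000006552, ENSOARG00000025195 and ENSOARG00000009963 (vertical axes, log scale) against ENSOARG00000025188 (horizontal axes, log scale), 1 symbol per library, with the colour for the chamber, the shape for the replicate number and open symbols for d5. The first 2 panels run along a diagonal (r 0.982 and 0.919 over 24 libraries), while ENSOARG00000009963 spreads widely at each level of ENSOARG00000025188 (r 0.507).

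Among the 13694 other genes that reached 5 CPM in at least 1 library, the gene most like ENSOARG00000025188 over the 24 libraries was ENSOARG00000006552, and the reverse held. These ranks include the rumen libraries on which the genes were chosen, and over the 18 libraries without the rumen both again ranked 1 for each other. The next most like ENSOARG00000025188 were ENSOARG00000025191 (r 0.961) and ENSOARG00000025555 (r 0.957). ENSOARG00000025191 was at 374, 131 and 33.2 CPM in the d10 rumen libraries 1, 2 and 3, and ENSOARG00000025555 at 442, 144 and 54.2 CPM. Both thus had the same order of libraries, with rumen means 10.8 and 11.2 times those at d5, and both had at most 1 count in any abomasum library (up to 0.0711 CPM). For ENSOARG00000006552 the next were ENSOARG00000006669 (r 0.943) and ENSOARG00000025555 (r 0.941). For ENSOARG00000025195 they were ENSOARG00000025188, ENSOARG00000008058 (r 0.918) and ENSOARG00000006552. Without the rumen, ENSOARG00000025188 and ENSOARG00000006552 ranked 14 and 22 for ENSOARG00000025195. For ENSOARG00000009963 no gene exceeded an r of 0.750, with values of 0.750, 0.747 and 0.745 for ENSOARG00000015742, ENSOARG00000003124 and ENSOARG00000004515. The first of these was at 7.05, 7.04 and 6.31 CPM in the d10 rumen libraries, and so did not share the difference between libraries 2 and 3. Among the genes most like ENSOARG00000009963, ENSOARG00000006552, ENSOARG00000025195 and ENSOARG00000025188 ranked 310, 314 and 374, and 1747, 3509 and 2058 without the rumen.

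In the reticulum, which took no part in the choice, the 4 genes had higher means at d10 than at d5, but none passed the test across all genes. ENSOARG00000009963 was at 4.66, 0.510 and 1.42 CPM in libraries 1, 2 and 3 at d5 and at 52.9, 120 and 28.4 CPM at d10, without overlap. ENSOARG00000006552 was at 9.96, 2.62 and 12.9 CPM at d5 and at 235, 20.5 and 145 CPM at d10, also without overlap. ENSOARG00000025188 was at 39.4, 3.06 and 28.5 CPM at d5 and at 778, 32.8 and 197 CPM at d10, where d10 library 2 lay below d5 library 1. ENSOARG00000025195 was at 31.6, 14.5 and 8.84 CPM at d5 and at 111, 13.3 and 36.6 CPM at d10, again with an overlap through library 2. Groups without overlap, higher at d10, were thus seen for 2 of the 4 genes, against 6.23% of the 14258 genes with a mean of at least 1 CPM in the reticulum.
The log2 fold changes were 4.79 ± 0.81 (SE) for ENSOARG00000009963, 3.88 ± 0.91 for ENSOARG00000006552, 3.70 ± 1.18 for ENSOARG00000025188 and 1.47 ± 0.73 for ENSOARG00000025195, with edgeR adjusted p of 0.185, 0.378, 0.534 and 0.709. Without d10 library 1, the values of ENSOARG00000025188 and ENSOARG00000025195 were 2.29 and 0.47. Their median was 3.79, against 0.01 over the 14708 genes tested. By edgeR 0 of the 4 genes and 0 genes in all (0%) passed at 0.05, while 3 of the 4 and 1092 in all had an unadjusted p under 0.05. DESeq2 called 2 of the 4, ENSOARG00000009963 (adjusted p = 5.6e-10) and ENSOARG00000006552 (adjusted p = 0.033), and 149 genes in all.

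In the omasum the mean levels were lower than in the reticulum, except for ENSOARG00000009963 at d5 (6.24 against 2.20 CPM). The group at d5 included both libraries with abomasal transcripts. ENSOARG00000025195 was at 0.0509, 0 and 0.374 CPM in libraries 1, 2 and 3 at d5 (7 counts in all) and at 13.4, 5.70 and 8.14 CPM at d10. Its d10 libraries were thus more alike than in the rumen or reticulum. ENSOARG00000006552 was at 0.153, 0.149 and 4.17 CPM at d5 and at 17.0, 4.37 and 33.2 CPM at d10, with the lowest d10 library only just above the highest d5 library. ENSOARG00000025188 was at 0.509, 0.0745 and 7.48 CPM at d5 and at 62.9, 3.67 and 29.7 CPM at d10, with an overlap through d10 library 2. For these 3 genes the d5 library without abomasal transcripts, library 3, was the highest of its group. ENSOARG00000009963 was at 10.4, 6.78 and 1.495 CPM at d5 and at 25.7, 27.2 and 4.92 CPM at d10, so that here library 3 was the lowest of the d5 group. That gene was also expressed in the abomasum, and the part of the abomasal transcripts in its level was not tested.
The log2 fold changes for age in the omasum were 5.76 ± 0.88 (SE) for ENSOARG00000025195, 3.45 ± 1.47 for ENSOARG00000025188, 3.42 ± 1.29 for ENSOARG00000006552 and 1.44 ± 0.86 for ENSOARG00000009963, with edgeR adjusted p of 0.675, 0.675, 0.675 and 0.721. Their median was 3.44, against 0.00 over all 15130 genes tested. By edgeR 0 of the 4 and 0 in all (0%) passed, while 2 of the 4 and 1111 in all had an unadjusted p under 0.05. DESeq2 called ENSOARG00000025195 alone (adjusted p = 1.1e-08) among the 4, and 156 genes in all. With at most 6 counts in any d5 library, that gene passed the filter on low counts only through d10, and no support is drawn from its call. Of the 4 genes, 2 did not overlap between the ages (ENSOARG00000025195 and ENSOARG00000006552), against 14.6% of 14544 genes. ENSOARG00000025195 reached the mean of 1 CPM required there only through d10. Without d5 libraries 1 and 2, the log2 fold changes were 4.48, 1.998, 1.97 and 3.62 in the same order, and edgeR called 0. Without d5 library 3 they were 7.74, 6.43, 6.56 and 0.96, and again 0 were called.

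In the abomasum, 3 of the 4 genes were at or near 0 at both ages. ENSOARG00000025195 and ENSOARG00000006552 had 0 counts in all 6 libraries, which allows up to 0.176 to 0.213 CPM per library. ENSOARG00000025188 had 1 count in d5 library 2 and 1 in d10 library 1. These 3 genes did not pass the filter on low counts there, and no test of age was made. ENSOARG00000009963 was expressed in every abomasum library, at 0.569, 35.1 and 2.11 CPM at d5 and at 19.2, 6.23 and 2.99 CPM at d10. Its means were 12.6 ± 19.5 and 9.46 ± 8.56 CPM (SD, n = 3 each), and d5 library 2 lay above every d10 library. Its groups overlapped, while 7.89% of the 13394 genes with a mean of at least 1 CPM in the abomasum were higher at d10 without overlap. The other 3 genes are not among those 13394. The log2 fold change was -0.27 ± 1.16 (SE) with an edgeR adjusted p of 0.999, and 2.44 (adjusted p = 0.838) without d5 library 2. By edgeR 0 of 13780 genes (0%) changed with age in the abomasum, while 805 had an unadjusted p under 0.05, this gene not among them, and DESeq2 called 124, this gene not included.

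Averaged over both ages, ENSOARG00000025188, ENSOARG00000025195 and ENSOARG00000006552 were higher in reticulum and omasum than in the abomasum. Between omasum and reticulum ENSOARG00000025195 alone passed the test, and ENSOARG00000009963 passed none between these chambers. Omasum against reticulum, the log2 fold changes were -4.82 ± 0.68 (SE) for ENSOARG00000025195, -3.37 ± 0.92 for ENSOARG00000025188, -2.83 ± 0.84 for ENSOARG00000006552 and -0.18 ± 0.79 for ENSOARG00000009963. Of these only ENSOARG00000025195 passed (edgeR adjusted p = 0.012), against adjusted p of 0.124, 0.172 and 0.936, where 0.613% of 15996 genes differed, 0.231% lower and 0.381% higher in the omasum. The call of ENSOARG00000025195 was lost without omasum d5 libraries 1 and 2 (log2 fold change -4.18, adjusted p = 0.204), where the log2 fold changes of ENSOARG00000025188, ENSOARG00000006552 and ENSOARG00000009963 were -2.67, -2.13 and -1.27. Without omasum d5 library 3 alone, ENSOARG00000025188 (adjusted p = 0.026) and ENSOARG00000006552 (adjusted p = 0.033) passed as well. The median over the 4 genes was -3.10, against 0.01 over all genes.
Against the abomasum, the 3 genes passed the edgeR test in both chambers, with adjusted p of 8.2e-06 to 0.00013 for the reticulum and 0.0010 to 0.0032 for the omasum, where 48.9% and 49% of all genes differed. Lower in the abomasum were 25.5% of genes against the reticulum and 25.3% against the omasum, and 23.4% and 23.7% were higher, so that passing this test was common among all genes. With at most 1 count in any abomasum library, the 3 genes passed the filter on low counts only through reticulum and omasum. The direction was thereby fixed, and no support is drawn from these p-values. Set against the limit that a count of 0 allows in each library, ENSOARG00000006552 was at least 361-fold higher in the reticulum and at least 50.1-fold higher in the omasum, and ENSOARG00000025195 at least 183-fold and 23.5-fold higher. For ENSOARG00000025188 the ratio of pooled counts was 7905 (95% interval 2188 to 65277) in the reticulum and 799 (221 to 6602) in the omasum. These ratios take both ages together. A count of 0 allows 0.196 CPM on average in the abomasum. The omasum mean of ENSOARG00000025195 at d5, 0.142 CPM, lay below it, so that no minimum ratio can be given for that age. For ENSOARG00000006552, omasum d5 libraries 1 and 2 (0.153 and 0.149 CPM) lay below it as well. Minimum ratios without these libraries were not computed. The ratios depend on the highest d10 library. Without reticulum d10 library 1 they were 2725 (754 to 22506) for ENSOARG00000025188, at least 194 for ENSOARG00000006552 and at least 107 for ENSOARG00000025195. In the omasum, the ratio of ENSOARG00000025188 was 358 (98.6 to 2960) and that of ENSOARG00000025195 at least 14.5 without d10 library 1, and that of ENSOARG00000006552 at least 26.3 without d10 library 3. Without omasum d5 library 3, the adjusted p of ENSOARG00000025195 between abomasum and omasum was 0.071. ENSOARG00000009963 had log2 fold changes of 0.24 ± 0.77 and 0.42 ± 0.77 (SE) against reticulum and omasum, with adjusted p of 0.820 and 0.672. Without omasum d5 libraries 1 and 2, the value against the omasum was 1.55 (adjusted p = 0.258), while the other 3 genes still passed there (adjusted p of 0.00042 to 0.0038). These abomasum values take in the spread of d5 library 2, without which they were -1.06 and -0.88 (adjusted p = 0.228 and 0.306). They also average over opposite differences of the means. At d5 the abomasum mean of ENSOARG00000009963 was above those of reticulum and omasum (12.6 against 2.20 and 6.24 CPM, overlapping). That d5 mean rests on library 2 (35.1 CPM), as libraries 1 and 3 were at 0.569 and 2.11 CPM. At d10 the abomasum mean was below both others (9.46 against 67.1 and 19.3 CPM), overlapping the omasum but not the reticulum. In these bulk libraries, fewer cells that express a gene and less RNA per cell cannot be told apart.

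**Figure D5:**
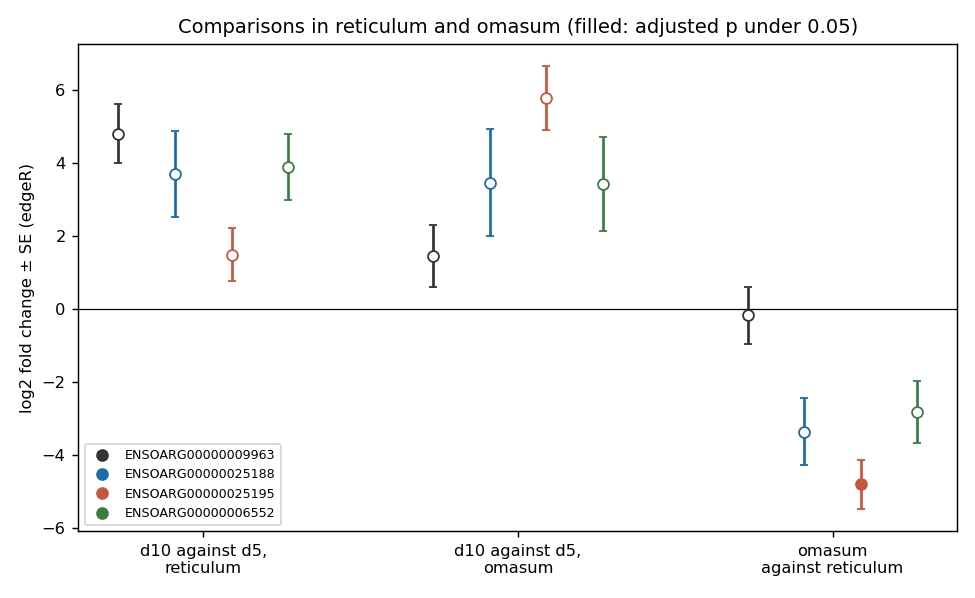
Log2 fold change with its SE (vertical axis, edgeR) of the 4 genes for d10 against d5 within reticulum and within omasum, and for omasum against reticulum (horizontal axis). Filled symbols passed an adjusted p of 0.05, which holds only for ENSOARG00000025195 in omasum against reticulum (-4.82 ± 0.68), and all 8 age differences lie above 0.

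Whether the age effect differed between reticulum, omasum and abomasum was tested as well, and 0 of the 4 genes and 0 of 15996 in all (0%) passed in any of the 3 contrasts by edgeR. An unadjusted p under 0.05 was found for 800 genes in omasum against reticulum, 1241 in abomasum against reticulum and 1402 in abomasum against omasum. No other tool was run on these contrasts. The change was 4.31 ± 1.29 (SE) larger on the log2 scale in the omasum than in the reticulum for ENSOARG00000025195 (adjusted p = 0.644). For ENSOARG00000009963 the value was -3.27 ± 1.59 (adjusted p = 0.993), and in the abomasum against the reticulum it was -4.92 ± 1.62 (adjusted p = 0.527). These contrasts were not run without omasum d5 libraries 1 and 2. Leaving both out moved the log2 fold change for age within the omasum from 1.44 to 3.62 for ENSOARG00000009963. For ENSOARG00000025195 it moved from 5.76 to 4.48. In the reticulum the values were 4.79 and 1.47.

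Across the 8 groups, the means of ENSOARG00000009963 ran from 108 CPM in the rumen at d10, through 67.1 in the reticulum and 19.3 in the omasum at d10, to 12.6 and 9.46 in the abomasum at d5 and d10. Lowest were the d5 groups of omasum (6.24), reticulum (2.20) and rumen (0.753 CPM). Of the 7 pairs of neighbours in this order, only reticulum and omasum at d10 did not overlap. ENSOARG00000025188 was highest in rumen and reticulum at d10 (345 and 336 CPM, overlapping), followed by omasum at d10 (32.1), reticulum at d5 (23.7), rumen at d5 (5.63) and omasum at d5 (2.69 CPM). The lowest omasum value at d5 was 1 count, as were the highest values in the abomasum, so that these groups were not apart at this depth, and neither was any other pair of neighbours. ENSOARG00000006552 was highest in reticulum and rumen at d10 (133 and 104 CPM, overlapping), and the rumen did not overlap the omasum at d10 (18.2). It was at 8.49 in reticulum, 2.80 in rumen and 1.49 CPM in omasum at d5, where the lowest values of 0.149 and 0.153 CPM lay under the limit that a count of 0 allows in the abomasum. For ENSOARG00000025195 the reticulum at d10 (53.6) and the rumen at d10 (46.4) were followed by the reticulum at d5 (18.3), which was above the omasum at d10 (9.09 CPM) in mean but overlapped it. The omasum at d10 did not overlap the rumen at d5 (1.04 CPM). The mean of this gene in the reticulum was thus 2.92 times higher at d10 than at d5, against 44.6 times in the rumen, while the d10 means of both chambers were within their spread. That difference between chambers was not tested, as the gene was chosen on its change in the rumen.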

How the data were processed

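RNA sequencing was done in the epithelium of 4 stomach chambers at d5 and d10 (24 libraries), grouped by label. The deposited values are whole-number counts for each gene that the authors did not normalize. CASAVA 1.8 and TopHat2 2.0.13 appear in the submitters' processing notes. Which program counted the reads, on which build and annotation and with which strand setting is not given in the sources used here, so that reads shared with similar or overlapping genes cannot be told apart. The RefSeq table of sheep genes (35057 genes, ARS-UI_Ramb_v3.0) held 0 of the 27054 identifiers. The members and the lists were chosen with earlier results of these data known.

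CPM was computed over the library total. Tests used edgeR 4.0.16 in R 4.3.3 (TMM, filterByExpr, quasi-likelihood, two-sided) with Benjamini-Hochberg adjustment over all genes tested and a threshold of 0.05. Age was fitted within the 6 libraries of a chamber, and chambers in the 18 libraries without the rumen. The tests of whether age effects differed between chambers, and the ratios over the abomasum without single d10 libraries, were added after seeing the data. The genes named were the 4 members, the 3 genes most like each by Pearson r of log2(CPM + 1), and those nearest the limits of the rule. DESeq2 1.42.0 and other settings served as alternatives. In simulated counts with 200 changed genes, the test recovered 73.1% and 62.3% of 4-fold changes for age in reticulum and omasum, 15.2% in the abomasum and 98.1% for omasum against reticulum. Of 2-fold changes it recovered 11.2%, 4.26%, 0% and 20% in the same order. The simulation gave every gene the same relative spread, so that it does not give the recovery for the 4 genes. All 24 pairs of libraries of a group differed by more than sampling noise (chi-square per degree of freedom at least 20.2).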

Additional observations from a re-analysis of the deposited data

How the results depend on the processing

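The cause of the changes given here was not tested. For age in the reticulum, where 0 of the 4 genes were called, DESeq2 called 2 and the fit with no filter on low counts 1. For age in the omasum (0) DESeq2 called 1. For omasum against reticulum (1), DESeq2 called 2, and 0 were called without omasum d5 libraries 1 and 2 or with at least 10 counts in every library. With at least 10 counts, 0 were also called in both comparisons with the abomasum (3 each), since the 3 genes did not pass that filter. As single libraries were left out, omasum against reticulum gave 1 to 3 calls, abomasum against omasum 2 to 3, abomasum against reticulum 3 in each case, and age in any chamber 0. The same-numbered libraries were not taken as paired. Those of d5 and d10 cannot share a lamb, as the tissue was taken after slaughter. In no tested comparison of chambers did every pair correlate over 0.1 in its deviations (2 to 3 of 6 between reticulum, omasum and abomasum). For age, 0 to 2 of 3 pairs did. With the rumen, which no test used, 5 of 6 pairs did in the reticulum, 4 of 6 in the omasum and 1 of 6 in the abomasum, among them all 3 d10 pairs of rumen and reticulum and of rumen and omasum. Of 12 libraries, 8 correlated best with their own number between reticulum and omasum. With the replicate number as a block, age in the reticulum gave 2 calls (ENSOARG00000025188 and ENSOARG00000006552, edgeR adjusted p = 0.038 each) and omasum against reticulum 2 (ENSOARG00000025195 and ENSOARG00000025188, adjusted p = 0.026 and 0.010). For age this block joins different lambs by an arbitrary number, so that nothing is read from its calls. The log2 fold changes of ENSOARG00000009963 changed sign. For age in the abomasum (-0.27) it was 0.57 with the replicate block and between -1.16 and 2.44 with any single library omitted. Abomasum against reticulum (0.24) was -0.15 with the block and ran from -1.06 to 0.85, omasum against reticulum (-0.18) from -0.44 to 0.43, and abomasum against omasum (0.42) from -0.88 to 0.69. Over all genes, the calls for age were 0 in each chamber by edgeR. They were 149, 156 and 124 by DESeq2 in reticulum, omasum and abomasum, 13 and 10 in reticulum and abomasum with no filter, 4 in the abomasum with at least 10 counts, 6 and 45 in reticulum and abomasum in the fit of 18 libraries, and 6 in the reticulum with the replicate block. Single libraries left out gave 0 to 11 in the reticulum. For omasum against reticulum (98) they were 574 by DESeq2, 28 with at least 10 counts, 12 without omasum d5 libraries 1 and 2, and 18 to 247 without single libraries. In the rumen, the d10 to d5 ratios ran from 51.9 to 490 for ENSOARG00000009963, 17.0 to 87.3 for ENSOARG00000025188, 13.7 to 64.7 for ENSOARG00000025195 and 17.5 to 49.5 for ENSOARG00000006552 with any single library omitted. The rule took 6 genes, and 4 with an SD of at least the mean, 3 of them members. Depth limits the d5 values of ENSOARG00000009963 and the omasum d5 values of ENSOARG00000025195, which rest on few counts.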

Other observations

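ENSOARG00000011495, named after its values were seen, met the same limits as the 4 genes in the rumen, with 59.1, 7.04 and 0.354 CPM in d10 libraries 1, 2 and 3 and 0.267 to 0.390 CPM at d5. Its d10 order was that of ENSOARG00000025188, but in d10 library 3 it was within the range of the d5 libraries. Outside the rumen its highest level was in library 2 of the reticulum at d5, at 22.0 CPM, against 0.494 and 0.142 CPM in libraries 1 and 3 of that group and 0.214 to 0.592 CPM in the reticulum at d10.

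The proportion of 2 co-varying genes was not fixed. Per count of ENSOARG00000006552, ENSOARG00000025188 had 3.95, 2.20 and 1.51 counts in rumen d10 libraries 1, 2 and 3, and 3.32, 1.597 and 1.36 in those of the reticulum. The ratio was thus highest in library 1 of both chambers at d10. The same held for library 1 of the omasum at d10 (3.70) and, at d5, of rumen (3.31), reticulum (3.96) and omasum (3.33, from few counts). It was therefore not particular to the d10 libraries of rumen and reticulum. Counts are not divided by gene length, so that the ratio compares libraries and not the levels of these genes.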
